A study of Mus musculus with 21 samples.

Results

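The mouse collagen genes were followed across 7 groups of lung libraries. They were taken by a rule on names, set with earlier results of these data known. It took every gene symbol made of Col, a number, the letter a and a number, which is 1 gene for each collagen chain. The rule found 44 of the 38924 symbols in the count table, and these were divided into 11 chains of fibrillar collagens, 9 chains of basement membrane collagens and 24 other chains. RNA was sequenced from 21 libraries of female A/J mice, a strain prone to lung tumours, at 22 weeks. The Control group received vehicle. The NNK group received 4-(methylnitrosamino)-1-(3-pyridyl)-1-butanone, a tobacco-specific carcinogen, as 1 intraperitoneal dose of 100 mg/kg. The LPS group received lipopolysaccharide, a bacterial outer membrane product, by nasal instillation at 5 µg per mouse in 50 µL, 1 time per week from 1 week after the vehicle. The NNK_LPS group received both. NNK_LPS_Sil, NNK_LPS_I3C and NNK_LPS_Sil_I3C mice received both and a diet with silibinin (Sil), indole-3-carbinol (I3C) or both, at 20 µmol per g of diet each. Each group had 3 libraries, and the age of the mice is not in the labels. Dissected tumours, pooled from 3 mice in a group, gave the RNA of the 5 groups that received NNK. Control and LPS RNA was from normal lung, and NNK itself and tumour tissue therefore cannot be told apart. It is not labelled whether libraries of 1 group were separate mice, so p-values measure the spread between libraries, which may be technical.

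Collagens are secreted proteins of the extracellular matrix in which chains wind into a triple helix. The fibrillar types I, III and V form the tensile fibres of the airway wall, vessels and alveolar septa. Type IV forms the sheet-like network of basement membranes, and in the alveolus a special network of the alpha 3, 4 and 5 chains lies between epithelium and capillary. The other collagens coat fibrils, form microfilaments or short-chain networks, or span the cell membrane. Fibroblasts, smooth muscle, endothelium and epithelium each make their own set, and repair and tumour stroma are the settings in which collagen output of the lung is best known to change.

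Total counts were 13305504 to 25276293 per library. A number of libraries stood apart in sets that the labels do not name. By their mt-Atp8 counts relative to mt-Atp6 the libraries fell into sets of 8, 8 and 5 that follow the numbers in the sample titles. Set A (ratio 0.0206 to 0.0236) held Control, NNK, LPS 1 and LPS 2. Set B (0.0782 to 0.0876) held LPS 3, NNK_LPS, NNK_LPS_Sil and NNK_LPS_I3C 1, and set C (0.117 to 0.135) held NNK_LPS_I3C 2 and 3 and NNK_LPS_Sil_I3C. Lung cell markers were present in all groups, with no alveolar type 1, alveolar type 2 or endothelial marker at 0 in any group. Heart muscle markers were present too, at a summed 80.1 to 583.9 CPM, the count scaled by library size.

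Of the 44 collagen genes, 35 had enough counts to be tested, which were 9 fibrillar, all 9 basement membrane and 17 other chains. Genes were compared with edgeR's quasi-likelihood test over 15770 genes, and called at a Benjamini-Hochberg adjusted p under 0.05. All collagens together made up a mean of 4599.5 ± 185.3 CPM (SD, n = 3) in Control, 5442 ± 591.8 in LPS and 3540.5 ± 66.0 in NNK_LPS. Levels of different genes were compared per kb of merged exon. In Control the highest was Col3a1, the single chain of type III collagen, at 114 CPM per kb. Col4a1 and Col4a2, the chains of the common type IV network, followed at 100.2 and 93.1 CPM per kb. Col6a1, a chain of the type VI microfilaments, stood at 72.6 and Col4a3, a chain of the alveolar type IV network, at 58.3. The chains of type I collagen were lower, with Col1a2 at 45.5 and Col1a1 at 18.9 CPM per kb. The lowest of the tested genes was Col24a1, a minor fibrillar chain, at 0.132 CPM per kb.

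**Figure D1:**
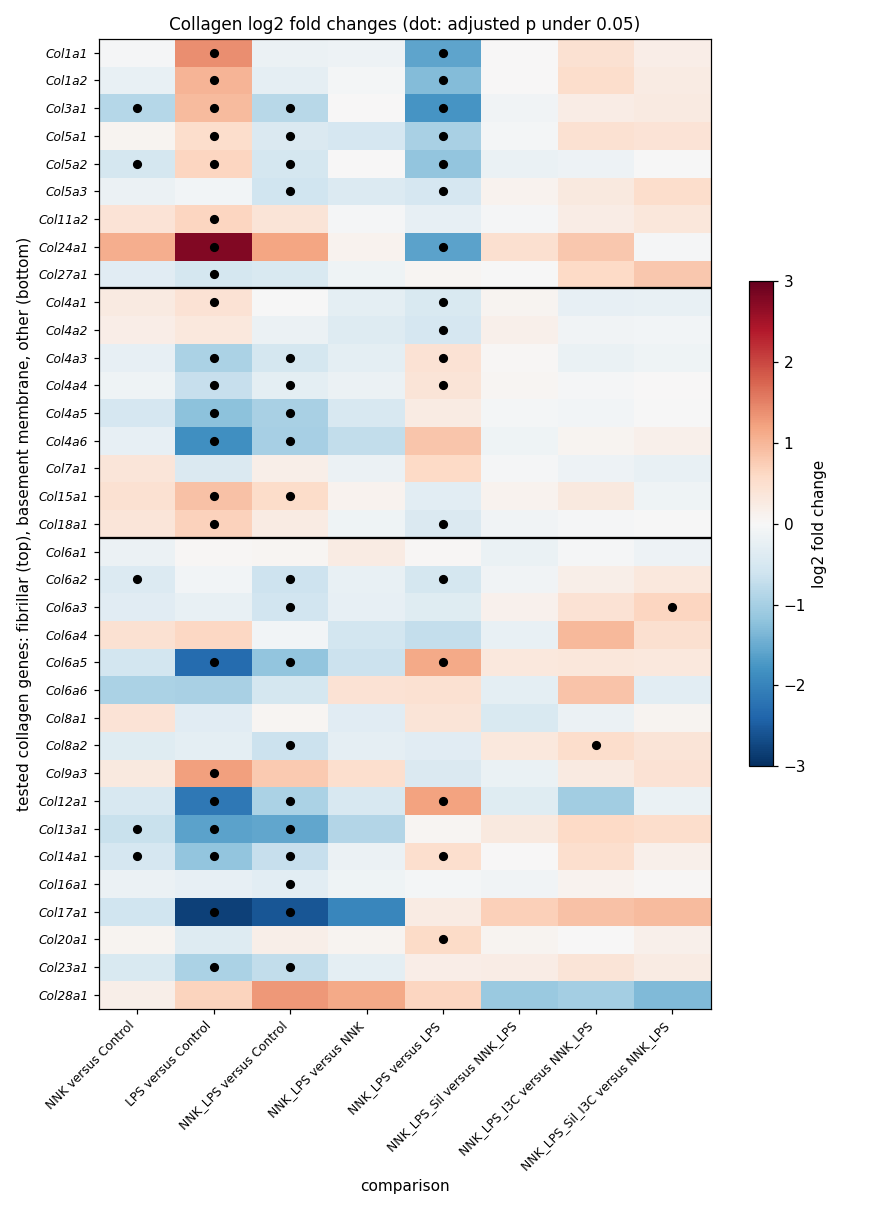
Heat map of the log2 fold change of the 35 tested collagen genes (rows, by class) in 8 comparisons (columns), with a dot where edgeR's adjusted p was under 0.05. The LPS versus Control column is red for most fibrillar chains and blue for Col4a3 to Col4a6 and the membrane collagens, while the NNK_LPS versus NNK and NNK_LPS_Sil columns hold no dot.

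LPS in lung raised most fibrillar collagens. It lowered the alveolar type IV network, the tested membrane-spanning collagens and the fibril-coating Col12a1 and Col14a1. Of the 35 tested genes 11 rose and 11 fell against Control. Among all genes 25.3% were called higher and 24.7% lower, so both shares of the collagens, 11 of 35 each way, were not far above the background. The classes were unlike each other: 7 of 9 fibrillar chains rose and 1 fell (median log2 fold change 0.65), 3 of 9 basement membrane chains rose and 4 fell (median -0.42), and 1 of 17 other chains rose and 6 fell (median -0.34). The median over all genes was -0.02. In bulk RNA, fewer cells of a type and less RNA per cell cannot be told apart.

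Type I collagen is the main tensile fibre. Col1a1 (chromosome 11, 94936224 to 94953042, GRCm38) stood at 124.5, 125 and 86.4 CPM in Control and at 219, 259 and 406 CPM in LPS. Its partner Col1a2 (chromosome 6, 4505493 to 4541544) stood at 239, 270 and 221 CPM in Control and at 398, 457 and 637 CPM in LPS. Col3a1 (chromosome 1, 45311538 to 45349706), whose fibres run with type I in pliable tissue, stood at 622, 743 and 531 CPM in Control and at 1017, 1194 and 1425 CPM in LPS. For each of the 3 genes every LPS library lay above every Control library, as did 30.4% of all tested genes. LPS 3 was the highest for each. The log2 fold changes over Control were 1.40 ± 0.25 (SE) for Col1a1 (adjusted p = 2.03e-04), 1.03 ± 0.18 for Col1a2 (2.09e-04) and 0.94 ± 0.21 for Col3a1 (0.00164). Within set A, which holds LPS 1, LPS 2 and all of Control, they were 1.11, 0.83 and 0.82, each still called.

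Type V collagen is a minor partner that nucleates fibrils and sets their width. Col5a2 stood at 183, 195.5 and 143 CPM in Control and at 240.0, 298 and 283 CPM in LPS, a log2 change of 0.65 ± 0.12 (adjusted p = 2.29e-04). Col5a1 stood at 46.4, 44.9 and 43.8 CPM in Control and at 60.8, 55.5 and 79.6 CPM in LPS, a change of 0.54 ± 0.14 (0.00502). Both were higher in each LPS library than in any Control library, as were 30.4% of all tested genes. Col5a3, the third chain, did not pass the test, at 9.71, 10.7 and 10.2 CPM in Control and 9.82, 10.6 and 8.35 CPM in LPS (-0.09 ± 0.14, adjusted p = 0.607).

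**Figure D2:**
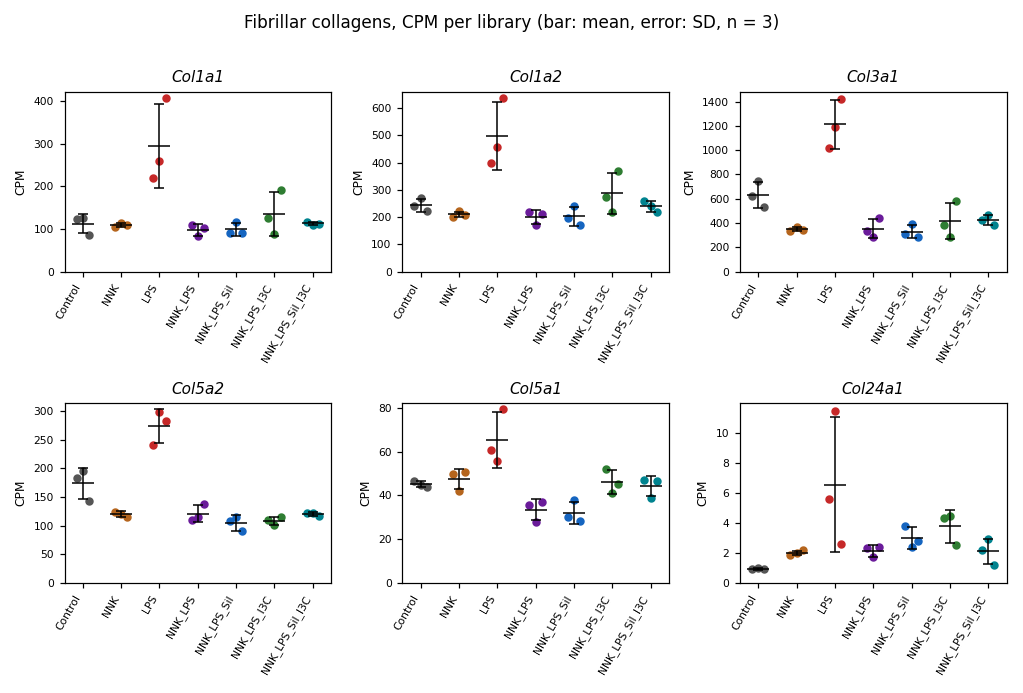
CPM of 6 fibrillar collagen genes in each library, by group, with the group mean (bar) and SD (error bar, n = 3). For Col1a1, Col1a2, Col3a1, Col5a1 and Col5a2 the 3 LPS libraries sit above all Control points, as in 30.4% of all tested genes. For Col24a1 the LPS values spread from 2.63 to 11.5 CPM.

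The largest rise among the tested chains was that of Col24a1, a fibrillar collagen known from developing bone. It stood at 0.910, 1.02 and 0.904 CPM in Control and at 5.59, 11.5 and 2.63 CPM in LPS. The groups did not overlap, though the LPS libraries differed more than 4-fold among themselves, and the log2 change was 2.79 ± 0.45 (adjusted p = 7.24e-05). Col11a2, a chain of the type V-like type XI collagen, stood at 4.93, 7.66 and 5.62 CPM in Control and at 9.10, 9.97 and 9.29 CPM in LPS (0.64 ± 0.19, adjusted p = 0.00996). Col27a1, a long fibrillar chain of cartilage, was the one that fell, from 20.4, 24.4 and 22.9 CPM to 15.6, 15.7 and 15.6 CPM (-0.53 ± 0.21, adjusted p = 0.0457), and it lost the call under 9 of 13 alternative analyses.

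The type IV chains split by network. Col4a1 (chromosome 8, 11198423 to 11312826) and Col4a2 (chromosome 8, 11312805 to 11449287) make up the network found in all basement membranes and are transcribed head to head. Col4a1 stood at 693, 654.5 and 641 CPM in Control and at 823, 893 and 977 CPM in LPS, with no overlap (0.44 ± 0.14, adjusted p = 0.0168). The call was lost without LPS 3 (adjusted p = 0.0636) and with the library set as a term (0.0563), and was kept within set A (0.00703). Col4a2 stood at 627.5, 585 and 588 CPM in Control and at 698, 732 and 816 CPM in LPS, also apart, but did not pass the test (0.32 ± 0.15, adjusted p = 0.0863).

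The chains of the alveolar network moved the other way. Col4a3 (chromosome 1, 82586976 to 82722059) stood at 501, 504 and 491 CPM in Control and at 278, 250.3 and 241 CPM in LPS (-0.96 ± 0.13, adjusted p = 1.10e-05). Its neighbour Col4a4 (chromosome 1, 82448423 to 82586849), transcribed from the opposite strand, stood at 226, 208 and 195 CPM in Control and at 129, 134 and 128 CPM in LPS (-0.69 ± 0.09, adjusted p = 1.08e-05). Each LPS value of Col4a4 lay below its Control values. Col4a5 on the X chromosome stood at 203, 230 and 193 CPM in Control and at 97.3, 92.0 and 77.6 CPM in LPS (-1.23 ± 0.18, adjusted p = 3.64e-05). Col4a6, its head-to-head neighbour and a chain of smooth muscle and skin membranes, stood at 2.81, 3.51 and 3.81 CPM in Control and at 1.07, 0.683 and 1.08 CPM in LPS (-1.83 ± 0.35, adjusted p = 3.31e-04). None of these 4 genes overlapped between Control and LPS. Of all tested genes 30.9% were lower in every LPS library than in any Control library, and 30.4% were higher in every one.

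**Figure D3:**
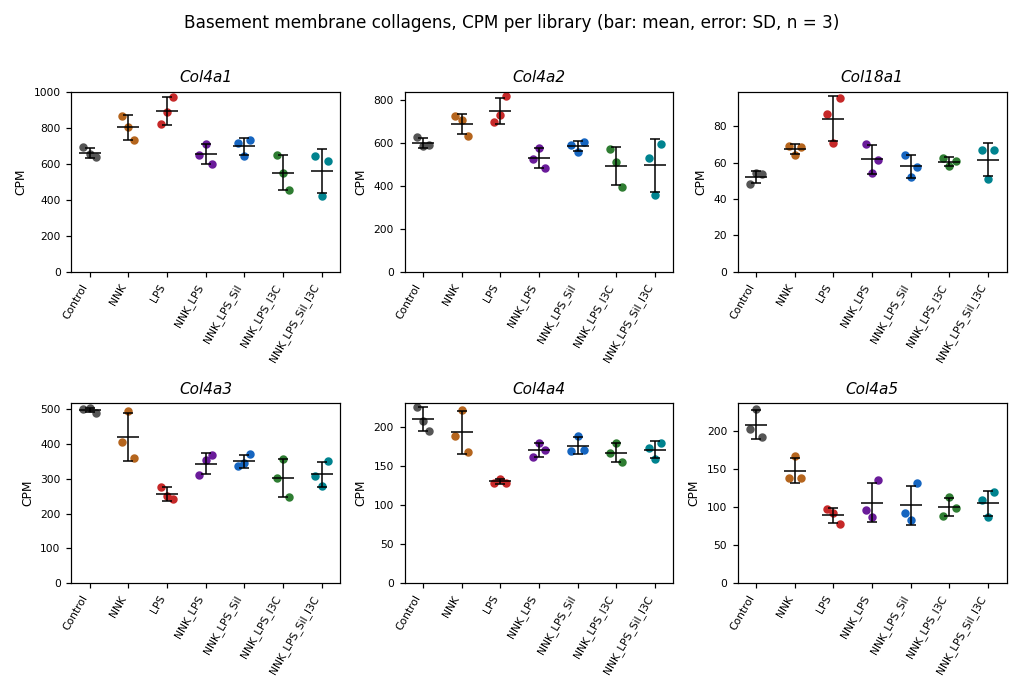
CPM of 6 basement membrane collagen genes in each library, by group, with the group mean (bar) and SD (error bar, n = 3). In the LPS group Col4a1, Col4a2 and Col18a1 lie above Control while Col4a3, Col4a4 and Col4a5 lie below it, and the tumour groups lie mostly in between for Col4a3 and Col4a4.

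The remaining basement membrane chains belong to the anchoring fibrils and to the multiplexins, whose ends release fragments such as endostatin. The multiplexin Col15a1 rose from 12.4, 13.4 and 13.0 CPM to 27.2, 19.8 and 24.4 CPM (0.87 ± 0.19, adjusted p = 9.71e-04). The endostatin precursor Col18a1 rose from 48.5, 54.0 and 53.8 CPM to 86.7, 70.7 and 95.3 CPM (0.69 ± 0.12, adjusted p = 1.67e-04). Col7a1, the chain of anchoring fibrils, stood at 11.5, 14.4 and 10.7 CPM in Control and at 8.46, 11.4 and 7.41 CPM in LPS, which overlap (-0.42 ± 0.24, adjusted p = 0.150).

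The 3 tested membrane-spanning collagens all fell with LPS. Col17a1 (chromosome 19, 47646344 to 47692094), the collagen of epithelial hemidesmosomes, stood at 6.60, 6.45 and 8.26 CPM in Control and at 0.932, 0.751 and 1.35 CPM in LPS (-2.80 ± 0.43, adjusted p = 4.10e-05). Col13a1 (chromosome 10, 61838236 to 61979108), found at cell-matrix junctions, stood at 89.4, 78.0 and 75.5 CPM in Control and at 29.4, 21.2 and 29.4 CPM in LPS (-1.60 ± 0.22, adjusted p = 1.64e-05). Col23a1, of the same family, stood at 101.7, 98.2 and 111 CPM in Control and at 61.5, 41.4 and 58.2 CPM in LPS (-0.95 ± 0.16, adjusted p = 1.15e-04). In none of the 3 did the groups overlap.

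Col12a1 and Col14a1, which coat fibrils, also fell. Col12a1, which links fibrils to the surrounding matrix, stood at 73.7, 92.7 and 85.4 CPM in Control and at 24.2, 20.3 and 12.1 CPM in LPS (-2.15 ± 0.33, adjusted p = 5.57e-05). Its relative Col14a1 stood at 97.8, 96.7 and 95.9 CPM in Control and at 45.01, 45.4 and 36.7 CPM in LPS (-1.19 ± 0.16, adjusted p = 1.26e-05). Both were apart in every library. The related Col16a1 stood at 41.2, 42.8 and 34.9 CPM in Control and at 29.2, 35.2 and 35.7 CPM in LPS, and Col20a1 at 7.05, 8.17 and 7.62 CPM and at 6.24, 5.94 and 5.18 CPM. Neither passed the test (-0.25 ± 0.10, adjusted p = 0.0527, and -0.40 ± 0.16, adjusted p = 0.0506).

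Of the type VI chains, which form beaded microfilaments around cells, only Col6a5 was called with LPS. It stood at 7.66, 7.34 and 8.26 CPM in Control and at 2.36, 1.23 and 1.08 CPM in LPS (-2.32 ± 0.33, adjusted p = 2.34e-05). Col6a1, the common chain, was at 286, 286.5 and 320 CPM in Control and 270, 314 and 324 CPM in LPS (0.03 ± 0.15, adjusted p = 0.903). Col6a2 was at 165.5, 178 and 183 CPM and at 153.5, 166 and 174.5 CPM (adjusted p = 0.514), and Col6a3 at 133, 153.5 and 175 CPM and at 138, 118 and 144 CPM (0.225). These 3 chains of the common type VI molecule overlapped between the groups. The rarer chains Col6a4 (1.52, 0.575 and 6.00 CPM in Control, 6.59, 2.25 and 3.77 in LPS) and Col6a6 (3.03, 1.15 and 2.26 CPM, then 1.22, 0.819 and 1.21) varied widely within a group and were not called.

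The short-chain collagens of type VIII, known from endothelium, did not pass the test. Col8a1 was at 10.4, 12.1 and 14.0 CPM in Control and 8.74, 13.7 and 6.40 CPM in LPS, and Col8a2 at 16.6, 19.3 and 19.9 CPM and at 16.7, 14.8 and 13.9 CPM. Col28a1, a type VI-like chain of peripheral nerve, was at 0.986, 1.02 and 0.904 CPM in Control and 1.65, 2.25 and 0.741 CPM in LPS (adjusted p = 0.292). Col9a3, a chain of the cartilage collagen type IX, rose from 0.455, 0.638 and 0.904 CPM to 1.65, 1.57 and 1.55 CPM (1.23 ± 0.37, adjusted p = 0.00975). Of its exons 7.68% are shared with the opposite-strand gene Tcfl5, and the strand setting of the counting is not given in the sources used here. Its partner Col9a1 was too low for the test, with 8 counts in each LPS library and 0 in all Control, NNK and NNK_LPS libraries. Taking 3 counts as the floor for a whole group, it was at least 8.16-fold higher in LPS than in Control. Without the filter on low counts it was called (adjusted p = 0.00126), whereas the third type IX chain, Col9a2, had 0 counts in LPS and 4 in Control. Cartilage markers stood at a summed 90.2 to 113 CPM in Control and 36.0 to 50.7 CPM in LPS. Of 11 cartilage markers, 3 were tested and 2 fell. In LPS Acan, Epyc and 3110079O15Rik had 0 counts, against 1, 1 and 0 in Control.

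The starts of 4 collagen genes are printed because they carry the ends of this pattern, type I and III chains that rose together with LPS and membrane-spanning chains that fell. RefSeq promoters (GRCm38.p6) were found for 35 of the 44 genes, Col1a1 not among them. Each stretch runs 5′ to 3′ on the gene's strand, from 250 bases before the RefSeq start site to the last base before any annotated exon. For Col1a2 and Col17a1 a GENCODE exon begins before the RefSeq site, so the stretches end 126 and 53 bases before that site. Capitals mark the motifs searched on both strands: the CCAAT box, the TATA box as TATAAA, the GC box as GGGCGG, and CAGACA, which holds the GTCT or AGAC core that SMAD proteins bind. None of these 4 motifs contains another. The stretches lie at chr6:4505368-4505492 (+) for Col1a2, chr1:45311288-45311537 (+) for Col3a1, chr10:61979109-61979358 (-) for Col13a1 and chr19:47692095-47692292 (-) for Col17a1.
Col1a2: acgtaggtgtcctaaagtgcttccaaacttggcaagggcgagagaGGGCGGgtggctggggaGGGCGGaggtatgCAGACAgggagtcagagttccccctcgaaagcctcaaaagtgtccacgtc
Col3a1: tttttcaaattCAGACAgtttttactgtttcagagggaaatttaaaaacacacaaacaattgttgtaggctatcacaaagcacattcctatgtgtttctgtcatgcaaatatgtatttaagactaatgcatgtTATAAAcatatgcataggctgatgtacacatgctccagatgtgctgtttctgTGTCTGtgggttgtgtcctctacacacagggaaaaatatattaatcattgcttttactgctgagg
Col13a1: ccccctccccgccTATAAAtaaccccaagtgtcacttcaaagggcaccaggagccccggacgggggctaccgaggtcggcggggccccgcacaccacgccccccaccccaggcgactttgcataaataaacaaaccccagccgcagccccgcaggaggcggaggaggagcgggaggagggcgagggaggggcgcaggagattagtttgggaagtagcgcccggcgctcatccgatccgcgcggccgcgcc
Col17a1: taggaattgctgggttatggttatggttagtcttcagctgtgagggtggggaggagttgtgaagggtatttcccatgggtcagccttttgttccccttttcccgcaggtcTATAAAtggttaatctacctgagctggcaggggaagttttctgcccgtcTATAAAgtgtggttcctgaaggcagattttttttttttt
Distances are counted from the RefSeq start site, not from the GENCODE gene positions given above. Col1a2 shows GC boxes 205 and 188 bases before the RefSeq start and CAGACA at 175. Col3a1 shows TATAAA at 117 and CAGACA at 239 and 65. Col13a1 shows TATAAA at 237, and Col17a1 shows it at 140 and 91. GC content was 59.2% in the Col1a2 stretch, 35.2% in Col3a1, 68.8% in Col13a1 and 45.5% in Col17a1. Over the full 250 bases, GGGCGG was held by 60% of the 35 collagen promoters and by 32.9% of 27025 promoters. The other motifs were nearer to the share of all promoters, with CCAAT in 34.3% against 34.5%, TATAAA in 14.3% against 13% and CAGACA in 22.9% against 17.1%. Col1a2 and Col17a1 hold CCAAT within the full 250 bases, but outside the stretches printed. A match describes letters and not a bound site.

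Collagen chains need a set of enzymes before they leave the cell. Of 22 genes of collagen synthesis and folding 13 rose and 3 fell with LPS, where 25.3% of all genes rose and 24.7% fell. The lysyl hydroxylase and glycosyltransferase gene Plod3 rose by 0.98 ± 0.09, the prolyl hydroxylase gene P4ha3 by 2.03 ± 0.24 and the chaperone gene Fkbp10 by 0.99 ± 0.16, while the galactosyltransferase gene Colgalt2 changed by -2.50 ± 0.35. Of 12 tested genes of procollagen processing and cross-linking 3 rose, among them Loxl3 (1.25 ± 0.16) and Lox (1.31 ± 0.43), which cross-link fibrils. The share that rose was near that of all genes. The C-proteinase enhancer genes Pcolce2 (-2.71 ± 0.27) and Pcolce (-0.48 ± 0.13) fell. Of 14 fibril-associated matrix genes 4 rose, again near the share of all genes, and 5 fell, with Tgfbi (1.85 ± 0.16) and Fbn1 (0.58 ± 0.12) higher and Prelp (-0.98 ± 0.15) lower. Of 15 receptors and collagen-degrading enzymes 5 rose and 4 fell, among them the membrane collagenase gene Mmp14 (1.72 ± 0.19) and the collagen receptor gene Lair1 (2.65 ± 0.25), both higher. Of 11 genes of TGF-beta ligands and targets 4 rose and 3 fell, with Tgfb1 higher by 0.74 ± 0.12.

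Fibroblast markers did not follow the fibrillar chains. Of 16 such markers 3 rose and 11 fell with LPS, none was at 0, and their summed level was 4860 to 5350 CPM in Control and 1930 to 2187 CPM in LPS. Smooth muscle and myofibroblast markers summed to 450.0 to 500.2 CPM in Control and 280.5 to 317 CPM in LPS, with 2 of 8 lower. All 10 endothelial markers fell (4195 to 4433.5 CPM, then 1884 to 2145), as did 7 of 8 alveolar type 1 markers, with 1 higher (8308 to 9073 CPM, then 4789 to 5345). The type 1 marker that rose was Pdpn (0.77 ± 0.18), which is also in the fibroblast list and is counted among its 3 that rose. None of the endothelial or type 1 markers was at 0. Of 8 leukocyte markers 6 rose, with sums of 5996 to 7526 CPM in Control and 9510 to 13447 CPM in LPS. All 8 tested heart muscle markers fell (557 to 583.9 CPM, then 101.2 to 146, Myl2 at 0), as did all 6 adipocyte markers (68.3 to 73.0 CPM, then 5.23 to 10.7). Alveolar type 2 markers were lower in 4 of 8 cases (29739 to 35376 CPM, then 18468 to 22228). The part of these cell types in the collagen changes was not tested.

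Tumours of the NNK group had fewer called collagens against Control lung. Of 35 tested collagens 5 fell and none rose, where 6.63% of all genes were lower and 6.46% higher. Both groups lie in set A. The medians were -0.17 for fibrillar, 0.20 for basement membrane and -0.37 for other chains, against -0.02 over all genes. Col3a1 stood at 336, 370 and 347 CPM in NNK, below every Control library (-0.85 ± 0.21, adjusted p = 0.0188). Col5a2 stood at 124.5, 121 and 115 CPM, also below Control (-0.53 ± 0.12, adjusted p = 0.0110). Type I collagen was not called, with Col1a1 at 105, 114 and 109 CPM (-0.04 ± 0.24, adjusted p = 0.932) and Col1a2 at 201, 222 and 206 CPM (-0.21 ± 0.18, adjusted p = 0.454).

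The other 3 that fell were the type VI chain Col6a2, the membrane chain Col13a1 and the fibril-coating Col14a1. Col6a2 stood at 137, 143 and 119 CPM in NNK (-0.40 ± 0.11, adjusted p = 0.0262). Col13a1 stood at 48.1, 54.9 and 50.0 CPM (-0.67 ± 0.21, adjusted p = 0.0481) and Col14a1 at 64.7, 81.1 and 58.0 CPM (-0.51 ± 0.16, adjusted p = 0.0422). All 5 genes were lower in each NNK library than in any Control library, as were 20.5% of all tested genes, and 17.3% of all were higher in each. No basement membrane chain was called in the fit of all groups, and 3 had an unadjusted p under 0.05. Col18a1 was called higher by DESeq2 and with scaling by relative log expression, which left 4 chains lower. In set A alone edgeR called 7 collagens lower and 3 higher, and added Col4a1, Col18a1, Col4a5, Col12a1 and Col24a1. With the 2 groups alone it called 8 lower and 4 higher, which also took in Col15a1 and Col23a1. With the replicate number as a block 6 were lower and 2 higher, the added ones being Col15a1, Col18a1 and Col23a1. No collagen was called without Control 1 or without Control 2, and 1 without NNK 1 or without NNK 3. Fibroblast markers summed to 2980 to 3544 CPM in NNK, with 6 of 16 lower and 1 higher than in Control, and their part was not tested. Heart muscle markers, at a summed 557 to 583.9 CPM in Control and 122 to 267.5 CPM in NNK, moved too (7 of 8 tested lower). Alveolar type 2 markers were higher in 5 of 8 cases (42682 to 50442 CPM, against 29739 to 35376 in Control) and leukocyte markers in 2 of 8 (7528 to 10076 CPM, against 5996 to 7526). The part of these markers was not tested either. Among the genes that serve collagen, the chaperone gene Serpinh1 fell (-0.72 ± 0.22) and the C-proteinase gene Bmp1 rose (0.70 ± 0.17). By list, 3 rose and 1 fell of 22 synthesis and folding genes, 1 rose and 1 fell of 12 for processing and cross-linking, and 3 rose and 3 fell of 14 fibril-associated genes. Of 15 receptors and degrading enzymes 3 rose and none fell, and of 11 TGF-beta genes 2 rose and none fell.

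Tumours that arose under LPS were set against Control lung as well. Of 35 collagens 18 fell and 1 rose, where 12.6% of all genes were lower and 12.0% higher. The groups share no library set. With the set as a term, which rests on LPS and NNK_LPS_I3C spanning sets, none of the 19 was called, and 24 genes were called in all. The calls were 10 without NNK_LPS 2 and 11 without NNK_LPS 1. Col17a1 stood at 1.13, 0.656 and 1.76 CPM in NNK_LPS (-2.56 ± 0.41, adjusted p = 5.57e-04) and Col13a1 at 22.0, 23.5 and 37.0 CPM (-1.55 ± 0.22, adjusted p = 2.54e-04). Both membrane chains lay below all Control values. Col4a5 stood at 95.7, 87.1 and 135 CPM (-0.97 ± 0.18, adjusted p = 0.00158), and Col3a1 at 336, 285 and 443 CPM (-0.83 ± 0.21, adjusted p = 0.0105).

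The one that rose was Col15a1, at 23.8, 16.1 and 17.4 CPM (0.56 ± 0.19, adjusted p = 0.0389). The fibrillar chains Col5a1, Col5a2 and Col5a3 fell by 0.42, 0.52 and 0.59 on the log2 scale, and Col1a1 and Col1a2 were not called (-0.18 ± 0.24 and -0.28 ± 0.18). Of the alveolar network Col4a3 changed by -0.54 ± 0.13 and Col4a4 by -0.30 ± 0.09. Col4a6, Col6a2, Col6a3, Col6a5, Col8a2, Col12a1, Col14a1, Col16a1 and Col23a1 were the others that fell, with log2 changes between -0.30 (Col16a1) and -1.19 (Col6a5). Fibroblast markers summed to 2295 to 3144 CPM in NNK_LPS, with 11 of 16 lower and 1 higher, and endothelial markers to 2051 to 3301 CPM, with 7 of 10 lower. All 8 tested heart muscle markers were lower too, at 87.8 to 166 CPM. Alveolar type 2 markers were higher in 7 of 8 cases (47794 to 66003 CPM) and leukocyte markers in 3 of 8 (10407 to 14654 CPM). The part of these markers was not tested. Of the genes that serve collagen, 5 of 22 for synthesis and folding were higher and 3 lower, and 1 of 12 for processing and cross-linking was higher and 4 lower.

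Adding LPS to NNK left the collagens of tumours without a called change. NNK_LPS against NNK gave 0 of 35 called with edgeR, where 15 of 15770 genes, 0.0951%, were called in either direction. At an unadjusted p under 0.05 stood 9 collagens, 8 lower and 1 higher, and DESeq2 called 3. Col17a1 was at 3.81, 4.51 and 5.72 CPM in NNK and 1.13, 0.656 and 1.76 CPM in NNK_LPS, which do not overlap (-1.96 ± 0.42, adjusted p = 0.0639). Col13a1 stood next (-0.89 ± 0.22, adjusted p = 0.0827), and DESeq2 called both and Col5a1. Without NNK_LPS 3 edgeR called 2, with Col17a1 at an adjusted p of 0.0340 and Col13a1 at 0.0312. The type I and III chains were near 0, with Col1a1 at -0.14 ± 0.24, Col1a2 at -0.06 ± 0.18 and Col3a1 at 0.02 ± 0.21. Of the lists of genes that serve collagen, the only called gene was the collagen receptor gene Itga2 (-0.75 ± 0.13, adjusted p = 0.0409). These 2 groups share no library set.

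Whether LPS acted alike in tumours and in lung was tested as the difference between the 2 effects. The difference was called for 17 of 35 collagens, 10 lower and 7 higher in tumours, where 14.4% of all genes were lower and 10.7% higher. Of the fibrillar chains 6 of 9 were lower and none higher (median -0.92, against 0.03 over all genes). Among these chains the widest gaps were those of Col24a1 (-2.69 ± 0.62, adjusted p = 0.00441) and Col1a1 (-1.54 ± 0.35, adjusted p = 0.00398). Col1a2 (-1.09 ± 0.26), Col5a1 (-1.04 ± 0.20), Col3a1 (-0.92 ± 0.30, adjusted p = 0.0333) and Col5a2 (-0.64 ± 0.17) followed. By edgeR each of these genes rose with LPS in lung and none was called in tumours, while DESeq2 called Col5a1 lower in tumours.

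The basement membrane chains split again by network. Col4a1 (-0.73 ± 0.20), Col4a2 (-0.70 ± 0.21), Col15a1 (-0.77 ± 0.26) and Col18a1 (-0.81 ± 0.17) were lower in the difference. Col4a3 (0.67 ± 0.18), Col4a4 (0.51 ± 0.13) and Col4a5 (0.75 ± 0.26) were higher, since they fell by more in lung. So were the fibril-coating Col12a1 (1.68 ± 0.45) and Col14a1 (1.02 ± 0.22), the type VI chain Col6a5 (1.67 ± 0.45) and the membrane chain Col23a1 (0.65 ± 0.23). Col17a1 was called lower with LPS in lung, and was lower but not called by edgeR in tumours. No difference was called for it (0.84 ± 0.59, adjusted p = 0.322), and the same held for Col13a1 (0.72 ± 0.31, adjusted p = 0.0976). Of 22 synthesis and folding genes 7 were lower in the difference and 1 higher (median -0.31). Plod3 (-0.81 ± 0.13) and Fkbp10 (-1.03 ± 0.22) were among the lower ones. In the same contrast 6 of 16 fibroblast markers were higher and 1 lower, and 4 of 8 leukocyte markers were lower, and their part was not tested. The difference kept its call under all 18 alternatives for 11 collagens. Col3a1 lost it in 9 of 18, Col15a1 and Col23a1 in 10, Col4a5 in 9, Col4a2 in 4 and Col24a1 in 1.

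**Figure D4:**
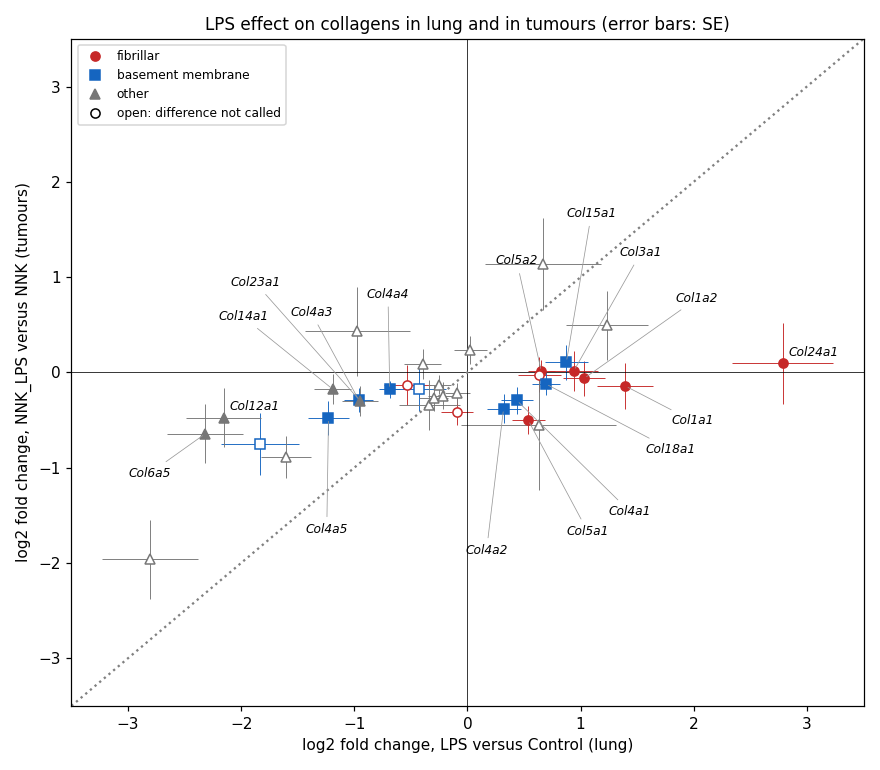
Log2 fold change with LPS in tumours (vertical axis, NNK_LPS versus NNK) against that in lung (horizontal axis, LPS versus Control) for the 35 tested collagens, with SE bars. Filled and named points are the 17 genes whose difference was called. The fibrillar chains among them lie to the right, near 0 on the vertical axis except for Col5a1, which lies below 0.

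The tumours of NNK_LPS were also compared with LPS-treated lung, a comparison that shares its groups with those above. Of 35 collagens 11 were lower in the tumours and 6 higher, where 20.9% of all genes were lower and 17.3% higher. Fibrillar chains were lower in 7 of 9 cases (median -1.17), and 8 of 22 synthesis and folding genes were lower and 3 higher. Col3a1 differed by -1.77 ± 0.22, Col1a1 by -1.58 ± 0.25, Col1a2 by -1.31 ± 0.19 and Col5a2 by -1.17 ± 0.12. Col4a3 (0.42 ± 0.13), Col4a4 (0.39 ± 0.09), Col12a1 (1.21 ± 0.33) and Col14a1 (0.50 ± 0.16) were higher in the tumours. Within set B, where LPS 3 is the only library of its group, 8 of the 17 were still called. These were 7 of the 11 lower ones and 1 of the 6 higher ones, Col12a1. Without LPS 3 the count was 12. Alveolar type 2 markers were higher in the tumours in 7 of 8 cases, and alveolar type 1 markers in 4 of 8 with 1 lower. Leukocyte markers were lower in 4 of 8 cases and mesothelial markers in 3 of 6. Their part was not tested.

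The diets changed few collagens. Silibinin gave 0 of 35 called, as it did 0% of all genes. At an unadjusted p under 0.05 stood 2 collagens and 578 genes in all, and DESeq2 called 0. Both groups lie in set B. The values farthest from 0 were those of Col28a1 (-1.12 ± 0.48) and Col17a1 (0.71 ± 0.43). Col1a1 was at 90.7, 116 and 89.9 CPM with silibinin and 110, 83.0 and 103 CPM without it, and the groups overlapped (0.00 ± 0.24).

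With indole-3-carbinol 1 of 35 collagens was called, where 2.02% of all genes were called in either direction. This was Col8a2, a short-chain collagen of endothelial membranes, at 17.5, 17.2 and 16.9 CPM against 12.7, 10.6 and 12.7 CPM in NNK_LPS (0.52 ± 0.13, adjusted p = 0.0494). With the replicate number as a block the adjusted p was 0.0591. The call was lost under 12 of 13 alternatives and kept by DESeq2. Fibrillar chains varied within the group. NNK_LPS_I3C 3 held the highest type I and III values of the tumour libraries, with Col1a1 at 126, 88.7 and 192 CPM, Col1a2 at 274, 219.5 and 369 CPM and Col3a1 at 382, 288 and 578 CPM over libraries 1 to 3. Their changes were not called (0.46 ± 0.24, 0.52 ± 0.18 and 0.23 ± 0.21). Heart muscle markers were higher with this diet, at a summed 390.5 to 568 CPM against 87.8 to 166 CPM (8 of 8 tested higher), and smooth muscle markers stood at 546 to 625 CPM against 195 to 471 CPM (1 of 8 higher). Alveolar type 2 markers were lower in 4 of 8 cases, at 36004 to 37227 CPM against 47794 to 66003 CPM. Their part was not tested.

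With both agents 1 of 35 was called, where 1.36% of all genes were. This was Col6a3, the long chain of type VI collagen, at 152, 152.5 and 182 CPM against 108, 85.5 and 117 CPM in NNK_LPS (0.65 ± 0.14, adjusted p = 0.0312). The groups share no library set, and with the set as a term the adjusted p was 0.557. The call was also lost in a fit of the 2 groups alone (0.199), and without any single library of either group except NNK_LPS 3. Col27a1 (0.80 ± 0.21, adjusted p = 0.0650) and Col5a3 (0.53 ± 0.14, adjusted p = 0.0674) came next, and were called by DESeq2. Alveolar type 2 markers were lower in 3 of 8 cases (35155 to 36475 CPM), and their part was not tested.

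No other collagen was called by edgeR between a diet group and NNK_LPS. With indole-3-carbinol DESeq2 added Col5a1 and Col14a1 as higher and Col12a1 as lower. Col3a1 stood at 313, 389.5 and 287 CPM with silibinin and at 429, 464 and 387 CPM with both agents, all below the lowest Control value of 531 CPM. With indole-3-carbinol 2 libraries were below that value and NNK_LPS_I3C 3, at 578 CPM, was above it. Col4a3 stood at 336, 345 and 372 CPM with silibinin, 303, 356 and 246 CPM with indole-3-carbinol and 308, 280 and 351 CPM with both. All were below Control, and NNK_LPS_I3C 3 lay within the LPS range of 241 to 278 CPM. Col17a1 stood at 1.05, 1.07 and 3.75 CPM with silibinin, 1.99, 2.69 and 1.95 CPM with indole-3-carbinol and 2.33, 1.96 and 2.68 CPM with both. Each was below every Control library.

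Over the 7 groups the widest range of group means among the 35 tested genes was that of Col17a1, 7.03-fold between Control and LPS. Col24a1 followed at 6.94-fold, highest in LPS and lowest in Control, and then Col6a5 at 4.98-fold and Col12a1 at 4.44-fold. The narrowest were Col6a1, at 1.18-fold, and Col16a1, at 1.32-fold.

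The make-up of the collagen RNA shifted with these changes. Shares are of raw collagen counts, in which long genes weigh more. Fibrillar chains took 24.2 to 29.8% of collagen counts in Control, 20.6 to 22.6% in NNK, 40.1 to 47.1% in LPS and 19.95 to 27.0% in NNK_LPS. The LPS libraries were above all others, the next being NNK_LPS_I3C 3 at 36.3%. Col4a3, Col4a4 and Col4a5 together took 19.7 to 20.1% in Control, 7.35 to 10.2% in LPS and 16.4 to 18.7% in NNK_LPS. Other chains took 22.6 to 26.1% in Control and 14.0 to 16.2% in LPS.

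**Figure D5:**
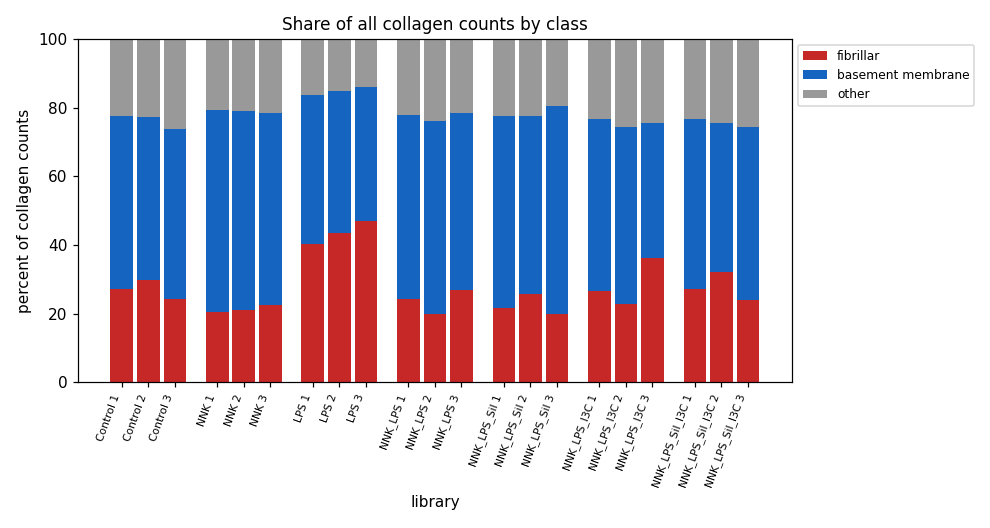
Percent of all collagen counts in each of the 21 libraries that fell on fibrillar, basement membrane and other collagen genes (stacked bars). The fibrillar part reaches 40.1 to 47.1% in the 3 LPS libraries and 36.3% in NNK_LPS_I3C 3.

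Chains that assemble into 1 molecule kept unlike degrees of balance. The count ratio of Col4a1 to Col4a2 ran from 1.03 to 1.24 over all 21 libraries, a 1.21-fold range. That of Col1a1 to Col1a2 ran from 0.391 to 0.638, with the LPS libraries highest at 0.549 to 0.638. Over all 21 libraries Col4a3 to Col4a4 spanned 1.585-fold and Col4a5 to Col4a4 2.506-fold. Col6a1 to Col6a2 spanned 2.105-fold and Col5a1 to Col5a2 2.553-fold. Ratios between chains of different molecules were taken as well. The ratio of Col4a3 to Col4a1 compares the alveolar with the common network. It was 0.723 to 0.770 in Control, 0.247 to 0.337 in LPS and 0.468 to 0.614 in NNK. The ratio of Col3a1 to Col1a1 was 5.00 to 6.14 in Control and 3.01 to 4.65 in every other group. Col12a1 to Col14a1, a pair that shares its place on fibrils, spanned 6.08-fold.

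The 9 collagens that were too low to test were Col2a1, Col11a1, Col9a1, Col9a2, Col10a1, Col19a1, Col22a1, Col25a1 and Col26a1. Their totals over 21 libraries were 0 to 76 counts, with Col10a1, the collagen of hypertrophic cartilage, at 0 throughout. Col2a1, the main cartilage collagen, had 3 counts in each of Control, NNK and LPS, 6 in NNK_LPS and 2 in NNK_LPS_Sil. It had 18 in NNK_LPS_I3C and 20 in NNK_LPS_Sil_I3C, the groups that hold the deeper set C libraries. Without the filter on low counts edgeR called neither against NNK_LPS (adjusted p = 0.474 and 0.546). At this depth their absence from lung cannot be told from a low level.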

How the data were processed

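The deposited table holds whole-number counts per gene symbol for 21 libraries, made by the authors on mm10, per the submitters' processing notes. The library kit was TruSeq RNA version 2, per the labels' protocols. For the aligner, the annotation and the strand, nothing is given in the sources used here. Groups came from the labels. Libraries were scaled by TMM in edgeR 4.0.16 (R 4.3.3), genes were kept by filterByExpr (minimum count 10), and the quasi-likelihood F test with robust fitting was run over all 7 groups (14 residual degrees of freedom, common BCV 0.168), with Benjamini-Hochberg adjustment over 15770 genes in each of 9 contrasts. Fold changes carry SE (3 libraries per group). The code was tested on simulated data.

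CPM are counts over the TMM-scaled library size. Positions and exon lengths are from GENCODE on GRCm38, the same assembly as mm10. Within-group pairs differed beyond sampling noise (chi-square per degree of freedom 4.87 to 54.5), so all libraries were kept. Floors cover counting error only. The members, gene lists and alternatives were chosen with earlier results of these data known. All collagen genes could be named, and of each other list up to 5 called genes with the smallest adjusted p. Libraries were numbered by their order within a group. Same-numbered libraries of NNK_LPS_I3C and NNK_LPS correlated at 0.158, 0.276 and 0.262 in their deviations from the group means. These libraries carry unlike numbers at the end of their titles and no label pairs them, so this does not show a pairing. The main test was unpaired, and the replicate number as a block was an alternative only.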

Additional observations from a re-analysis of the deposited data

Results flagged for a closer look

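For 17 collagens the effect of LPS in tumours (NNK_LPS against NNK) differed from that in lung (LPS against Control) by an edgeR interaction contrast at an adjusted p under 0.05. The difference, in log2 units and as tumour minus lung, was below 0 for Col24a1 (-2.69), Col1a1 (-1.54), Col1a2 (-1.09), Col5a1 (-1.04), Col3a1 (-0.92), Col18a1 (-0.81), Col15a1 (-0.77), Col4a1 (-0.73), Col4a2 (-0.70) and Col5a2 (-0.64). It was above 0 for Col12a1 (1.68), Col6a5 (1.67), Col14a1 (1.02), Col4a5 (0.75), Col4a3 (0.67), Col23a1 (0.65) and Col4a4 (0.51). Tumour tissue and NNK treatment cannot be told apart in this contrast, and NNK_LPS lies in another library set than NNK and Control.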

How the results depend on the processing

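Counts of called collagens in LPS against Control (22) and in the difference between tumours and lung (17) stayed within 1.5 times under each alternative run, and no collagen call reversed. For NNK against Control (5), the count was 3 without the filter on low counts, 12 with the 2 groups alone and 10 with set A alone. NNK_LPS against Control (19) gave 0 with the set term. NNK_LPS against NNK (0) gave 3 with DESeq2, and NNK_LPS against LPS (17) gave 8 in set B alone. The single call with I3C gave 0 with relative log expression factors, without the filter, with the set term, with the groups alone and in set B alone, and 4 with DESeq2. The single call with both agents gave 0 with the set term and with the groups alone, and 3 with DESeq2. Apart from those shown by their construction (fewer libraries or more genes tested), the cause was not tested.

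Leaving out each library gave 0 to 4 calls for NNK against Control, 20 to 23 for LPS, 10 to 18 for NNK_LPS against Control, 12 to 16 for the difference, 0 to 2 for NNK_LPS against NNK, 12 to 17 for NNK_LPS against LPS, 0 to 0 for Sil, 0 to 2 for I3C and 0 to 4 for both agents. With the replicate block the count was 8 for NNK against Control, 1 (Col17a1) for NNK_LPS against NNK and 0 for I3C, and within 1.5 times elsewhere. Same-numbered libraries correlated at -0.292 to 0.394 over 24 pairs, and every library correlated best with its own number in 1 of 8 comparisons, I3C.

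Fits within 1 set were not possible for NNK_LPS against Control, against NNK, for both agents or for the difference. Set B fits hold 1 LPS or 1 I3C library, which is assumed to vary like the other groups. Depth limits the 9 untested collagens.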

Other observations

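In NNK_LPS_I3C 3 the fibrillar chains took 36.3% of collagen counts, against 26.5% and 22.7% in the other libraries of its group, and Col4a1 was the lowest of the group (455 CPM). In the same library Col14a1, at 96.1 CPM, reached the Control range of 95.9 to 97.8 CPM, while Col12a1 stayed at 16.4 CPM. The ratio of Col12a1 to Col14a1 counts in this group was 0.170 to 0.349, against 0.754 to 0.959 in Control. This library was chosen after its values were seen. Adipocyte markers in that group summed to 34.2 to 80.5 CPM, against 7.11 to 27.0 CPM in NNK_LPS.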
